A study of Mus musculus with 6 samples.

Results

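The spliceosome removes introns from pre-mRNA. It is built anew on each intron from small nuclear RNAs packed with proteins (snRNPs): U1 binds the 5′ splice site, the U2AF dimer the 3′ splice site and U2 the branch point, and the U4/U6.U5 tri-snRNP then joins before the complex is activated. Each Sm-class snRNA carries a ring of Sm proteins and U6 a related ring of LSm proteins. A rarer minor spliceosome with its own U11 and U12 snRNPs removes a small class of introns. hnRNPL, an RNA-binding protein that recognizes CA-rich RNA and regulates alternative splicing, is not a core spliceosome subunit.

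Most of the genes described here code for core spliceosome proteins. They were chosen by symbol alone: the SF3a and SF3b subunits, the numbered Prpf factors, the Snrp and Snrnp proteins, the Lsm proteins and the U2af factors. Such a rule also takes in *Lsm1*, *Lsm10*, *Lsm11* and *Lsm12*, which are not part of the U6 ring, and the processed pseudogene *Snrpert*. All counts below include them. The rule found 56 of the 55421 genes in the deposited table. Of these, 55 were among the 17640 genes tested, those whose normalized counts (read counts divided by a size factor of the library) averaged 10 or more over the 6 libraries. The rule itself used no measured value, but it was chosen with earlier results of these data known. Values were compared between splenic B cells of 2 genotypes. The hnRNPL-deficient mice (3 libraries) had a floxed *Hnrnpl* gene on both chromosomes (hnRNPL F/F) together with *CD21-cre*, and the control mice, here WT (3 libraries), had *CD21-cre* without the floxed gene. Both also carried the *Rosa* mT/mG reporter, in which cre activity turns on GFP. The cells were cultured for 24 h with 5 ng/ml IL-4 and 5 μg/ml LPS, 2 stimuli that activate B cells, and GFP+ cells were sorted. *CD21-cre* is active mostly in mature B cells, but the study also describes excision in other tissues. The mice were older than 6 weeks and of either sex. Polyadenylated RNA was selected, and most snRNAs lack such a tail.

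*Hnrnpl* itself had 24371, 25580 and 24174 normalized counts in WT and 2178, 1519 and 1297 in hnRNPL-deficient libraries, as the labels say. A library held between 40395186 and 75180749 reads on genes, and hnRNPL-deficient library 3 had the fewest. All 10 B cell markers examined were expressed, with summed levels of 520155 to 641753 normalized counts in WT and 511845 to 573164 in hnRNPL-deficient libraries. Of 8 T cell markers 2 averaged 10 normalized counts or more, and the list summed to 40.6 to 55.8 in WT and 50.5 to 66.6 in hnRNPL-deficient libraries. Of 9 myeloid markers 2 reached that mean, and *S100a8* and *S100a9* were at 0 in every library. The myeloid sum was 260 to 332 in WT and 1239 to 1384 in hnRNPL-deficient libraries, nearly all of it from *Adgre1*. Of 5 NK markers 1 reached that mean (sums of 26.8 to 39.5 and 46.4 to 73.0, *Ncr1* at 0), of 7 erythroid and platelet markers 2 (sums of 32.5 to 48.2 and 33.4 to 56.5, *Pf4* and *Ppbp* at 0) and of 5 plasma cell markers all 5 (sums of 33957 to 39571 and 33296 to 36361). The part of these differences in the results below was not tested.

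A minority of the core spliceosome genes fell in hnRNPL-deficient B cells, most of them by less than 1.5-fold. Of the 55 tested genes, 8 fell at an adjusted p under 0.1 (limma, Benjamini-Hochberg over all genes tested) and 0 rose. Of those that fell, 7 are described here, namely *Snrpa1*, *Lsm2*, *Snrnp70*, *Prpf3*, *Sf3a1*, *Snrpd1* and *U2af1*, with means 17.9% to 38.8% below WT. They belong to 6 of the 8 roles described below. The 8 are 14.5% of the 55, against 7.97% of all genes tested that fell by the same rule. This excess depended on the setting. When 1 library was left out, 3.64% to 7.27% of the 55 fell, against 3.79% to 5.99% of all genes, and with quantile normalization 7.27% fell, against 8.02%. The 0 that rose stand against 10.0% of all genes. At an unadjusted p under 0.05, 15 were lower (27.3%, against 12.9% of all genes) and 0 higher (against 14.4%), and 0 were higher by edgeR or DESeq2 at an adjusted p under 0.1.

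When a change of at least 1.5-fold was also required, 1 gene, *Snrpa1*, was called lower (1.82%, against 4.08% of all genes) and 0 were called higher (against 7.28%). The 95% intervals of 37 of the 55 lay wholly within 1.5-fold in either direction, and the median half-width of an interval was 0.30 on the log2 scale. Of the 55, 48 (87.3%) had a lower mean log2 value in hnRNPL-deficient cells, against 52.7% of all genes (42 of the 55 with libraries scaled to equal totals and 38 with quantile normalization). In 17 (30.9%) all hnRNPL-deficient values lay below all WT values, against 16.3% of all genes, and in 0 all lay above, against 17.7%. The median log2 fold change was -0.16 over the 55 and -0.03 over all genes. Together these genes took 0.667%, 0.675% and 0.660% of all normalized counts in WT and 0.622%, 0.627% and 0.617% in hnRNPL-deficient libraries, and the groups did not overlap. Abundant genes weigh most in this sum, such as *Prpf8* (WT mean of 59136 normalized counts), which did not pass. No other gene set was compared in this way.

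**Figure D1:**
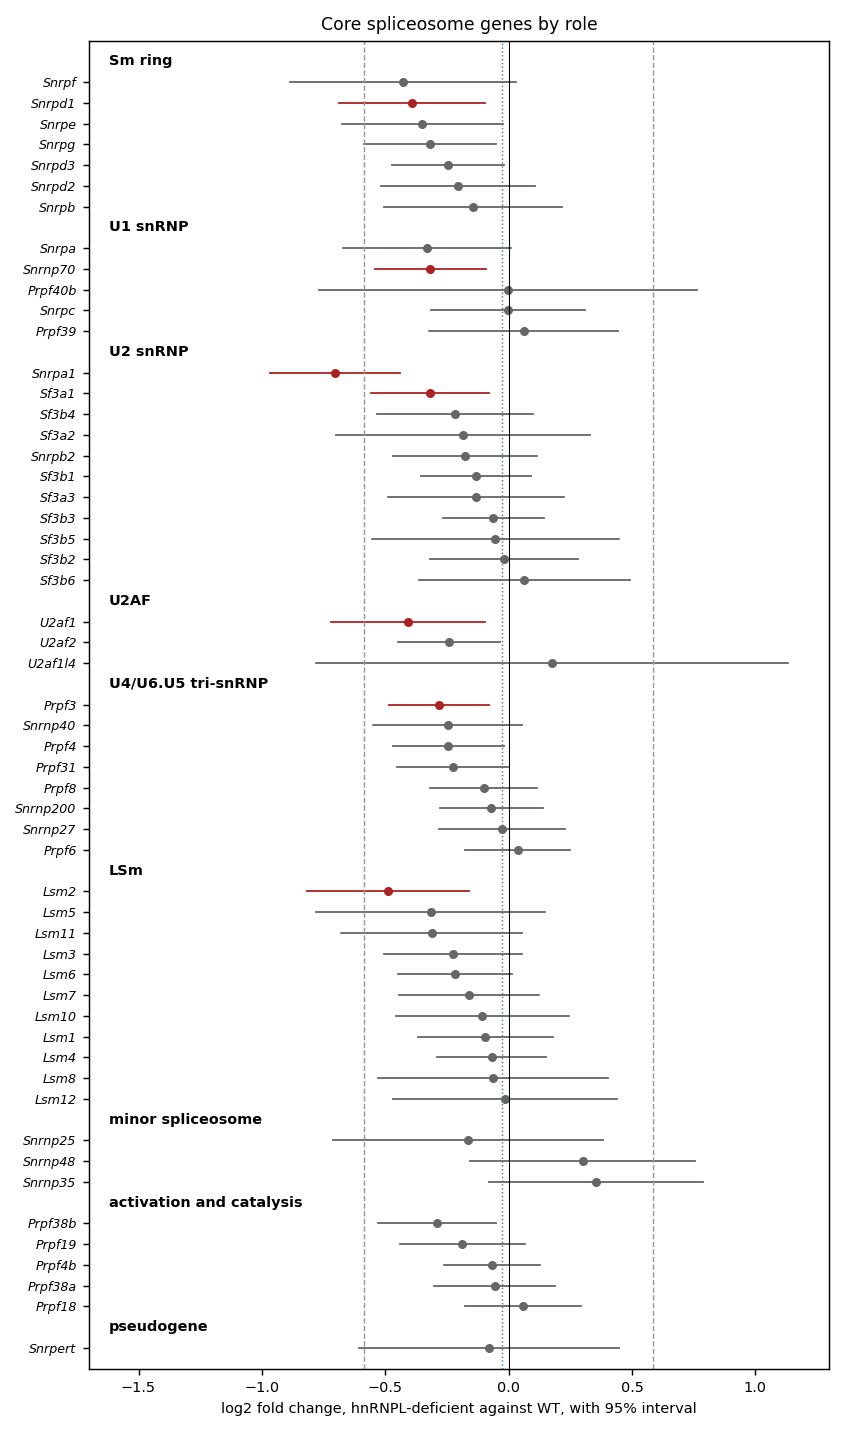
Log2 fold change (hnRNPL-deficient against WT, 3 libraries each) of 54 of the 55 tested genes, grouped by role, with the 95% interval from limma. Red marks the 7 of them with an adjusted p under 0.1, dashed lines mark 1.5-fold, the solid line no change and the dotted line the median of all genes (-0.03). Most points lie left of 0, and *Snrpa1* lies beyond 1.5-fold.

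The size of this shift depended on 1 library. hnRNPL-deficient library 3, the shallowest, had the lowest of the 6 values in 34 of the 55 genes (61.8%), while it was lowest in 25.6% of all genes. The median over the 55 genes of the log2 difference from each gene's WT mean was -0.08 and -0.11 in hnRNPL-deficient libraries 1 and 2 and -0.33 in library 3, against 0.00, 0.05 and -0.07 in the WT libraries. Without library 3 the median log2 fold change was -0.08, with -0.02 over all genes, 39 of 55 genes had a lower mean, and 3 genes fell, among them *Snrpa1* and *Snrnp70*. What set this library apart in these genes was not tested. *Snrpa1* fell without any of the 6 libraries. Each of the other 6 described here passed without at most 1 of the libraries, with limma's adjusted p between 0.0444 and 0.2303: *Lsm2* and *Sf3a1* without hnRNPL-deficient library 2, *Snrnp70* without hnRNPL-deficient library 3, *Snrpd1* without WT library 3, *U2af1* without WT library 2 and *Prpf3* in no case. In bulk samples, fewer cells of a type and less RNA per cell cannot be told apart.

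**Figure D2:**
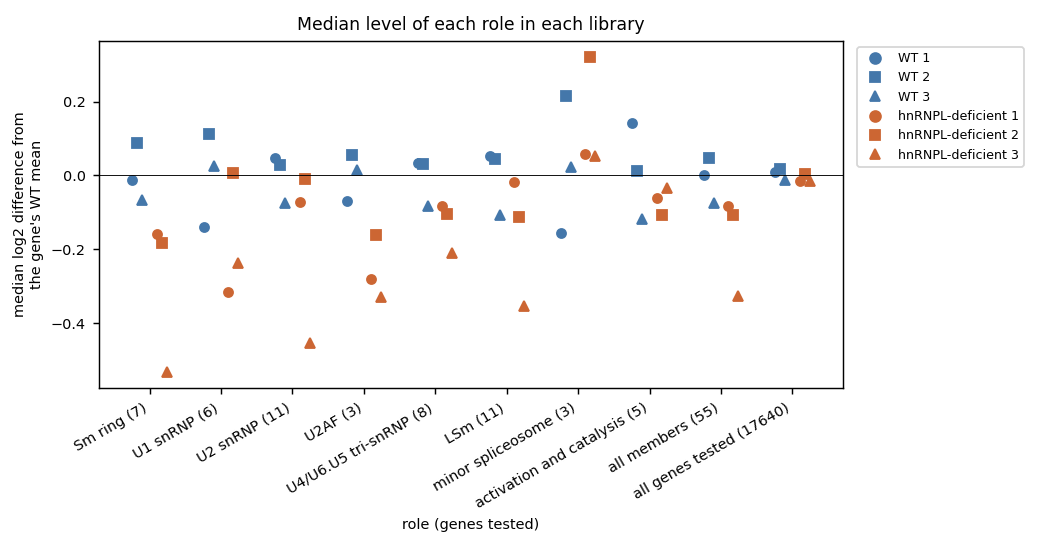
Median over the genes of each role of the log2 difference from the gene's WT mean, in each of the 6 libraries (shapes mark the replicate number; replicates have no order). hnRNPL-deficient library 3 is lowest in the Sm ring (-0.53) and U2 snRNP (-0.45), while the medians of all 17640 genes lie near 0 in every library.

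The U2 snRNP, which pairs with the branch point, held the largest change. *Snrpa1* (chr7:66059003-66074587, GRCm38) codes for U2A′, which binds U2 snRNA together with U2B″. It had 4672, 4063 and 3686 normalized counts in WT and 2620, 2640 and 2341 in hnRNPL-deficient libraries. Every hnRNPL-deficient value was far below the lowest WT value. The WT mean was 4140 ± 498 and the hnRNPL-deficient mean 2534 ± 167 (SD, n = 3 each), 38.8% lower, with a log2 fold change of -0.70 (SE 0.12, adjusted p = 0.00766, limma). Of the 55 genes it was the only one that fell under each of the 19 alternatives tried, with log2 fold changes of -0.78 to -0.61. *Snrpb2*, which codes for its partner U2B″, had a log2 fold change of -0.18 (adjusted p = 0.414, limma).

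The ratio of *Snrpa1* to *Snrpb2* was 0.776, 0.738 and 0.716 in WT and 0.448, 0.576 and 0.530 in hnRNPL-deficient libraries, and these did not overlap. With 3 libraries a group, the exact two-sided permutation test cannot give a p below 0.1, which is what it gave (0.45 after Benjamini-Hochberg adjustment over the 9 pairs compared). *Lsm2* to *Lsm3* was the only other pair without overlap (1.502, 1.860 and 1.624 in WT; 1.405, 1.488 and 1.252 in hnRNPL-deficient libraries; p = 0.1 in the same exact test, 0.45 adjusted). The pairs were picked after the values had been seen, and most set a gene that fell over a partner that did not pass. A lower ratio was thus partly built in, and it adds no separate support. In the other 7 pairs the ranges of the ratios overlapped, including the U2AF subunits (*U2af1* to *U2af2*: 0.743, 0.479 and 0.530 in WT and 0.540, 0.455 and 0.546 in hnRNPL-deficient libraries) and *Prpf3* to *Prpf4* of the tri-snRNP.

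**Figure D3:**
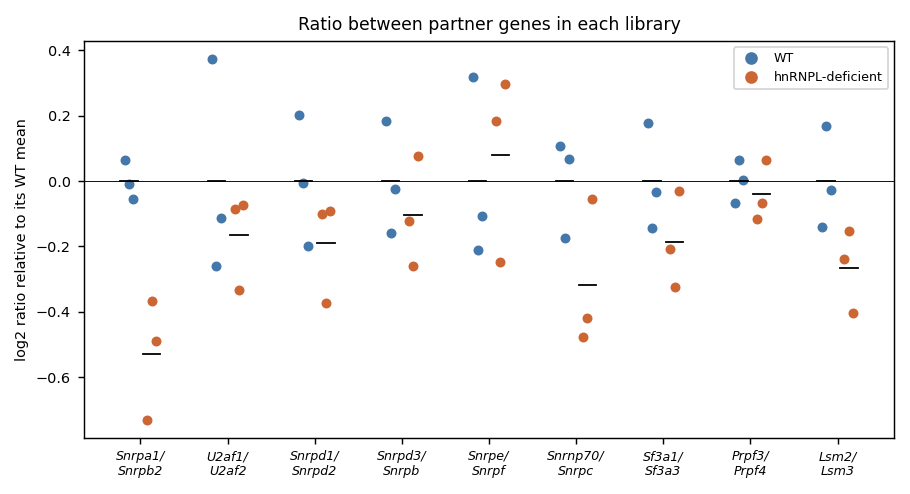
Ratio of the normalized counts of 9 pairs of genes whose products share a complex, as a log2 value relative to the pair's WT mean. Each point is 1 library (3 WT in blue, 3 hnRNPL-deficient in orange) and bars are means. Only *Snrpa1*/*Snrpb2* and *Lsm2*/*Lsm3* show no overlap between the groups. Most pairs set a gene that fell over one that did not pass, so lower ratios were partly built in.

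SF3a and SF3b hold U2 at the branch point. Of their subunits found by the symbol rule, 1 fell. *Phf5a*, an SF3b subunit outside that rule, also fell and is described with the partners below. *Sf3a1* (chr11:4160350-4182541) had 14248, 13896 and 13005 normalized counts in WT and 11292, 11996 and 9795 in hnRNPL-deficient libraries. All 3 values lay below the WT range. Its log2 fold change was -0.32 (SE 0.10, adjusted p = 0.0882, limma). The other SF3 subunits under the rule had log2 fold changes of -0.22 (*Sf3b4*) to 0.06 (*Sf3b6*). *Sf3b1*, the large subunit that clamps the branch point helix and is often mutated in leukaemias, had 41992, 38535 and 36518 normalized counts in WT and 36800, 34547 and 35257 in hnRNPL-deficient libraries. These ranges overlapped (log2 fold change -0.13, adjusted p = 0.421, limma; 0.00 with quantile normalization). Of the 11 U2 genes 10 had a lower mean (7 with quantile normalization or without hnRNPL-deficient library 3), and their median log2 fold change was -0.13.

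In U1, which marks the 5′ splice site, *Snrnp70* (chr7:45376453-45395742), which codes for U1-70K, fell. It had 10083, 10481 and 10641 normalized counts in WT and 7502, 8951 and 8650 in hnRNPL-deficient libraries. The WT values were close together and all above the others (log2 fold change -0.32, SE 0.10, adjusted p = 0.0748, limma). *Snrpa*, which codes for the U1 protein that binds its second stem loop, had a log2 fold change of -0.33 (adjusted p = 0.194, limma). *Snrpc*, which codes for the U1 protein that steadies the pairing with the 5′ splice site, was at 0.00, with an interval of -0.31 to 0.31, and *Prpf39* was at 0.06. The median over the 6 U1 genes was -0.16, with 5 of 6 lower means (3 when libraries were scaled to equal totals).

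U2AF recognizes the polypyrimidine tract and the AG at the 3′ splice site. Its small subunit gene *U2af1* (chr17:31647081-31658892), which fell, had 11941, 8382 and 9029 normalized counts in WT and 7496, 6869 and 7529 in hnRNPL-deficient libraries. WT library 1 stood well above the other libraries, and the remaining WT values were still above the hnRNPL-deficient ones. The log2 fold change was -0.41 (SE 0.14, adjusted p = 0.0959, limma), and leaving out each library in turn gave -0.51 to -0.25, with an adjusted p under 0.1 in 1 of 6 cases. The large subunit gene *U2af2* had 16060, 17496 and 17024 in WT and 13872, 15083 and 13793 in hnRNPL-deficient libraries. These did not overlap, but the change missed the threshold (log2 fold change -0.24, adjusted p = 0.124, limma). *U2af1l4*, a relative of *U2af1*, was the least expressed gene tested, with a mean of 23.4 normalized counts and an interval of -0.78 to 1.13.

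**Figure D4:**
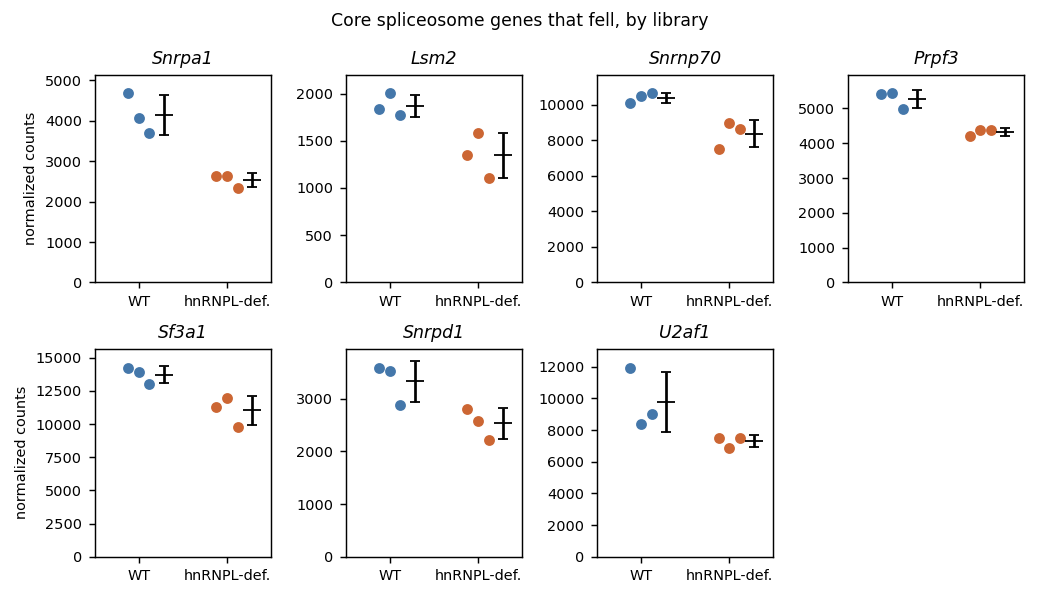
Normalized counts of 7 core spliceosome genes that fell, ordered by adjusted p. Points are libraries (3 WT in blue, 3 hnRNPL-deficient in orange), black marks are the mean ± SD, and each axis starts at 0. In all 7 genes every hnRNPL-deficient value lies below every WT value, which held for 16.3% of all genes tested. The 7 were picked by a test on these same values, so the separation is no separate support.

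The Sm ring sits on U1, U2, U4 and U5 and on the minor U11 and U12 snRNAs. *Snrpd1* (SmD1, on chromosome 18) had 3587, 3519 and 2875 normalized counts in WT and 2800, 2575 and 2225 in hnRNPL-deficient libraries. The lowest WT value and the highest hnRNPL-deficient value were close to each other. Its log2 fold change was -0.39 (SE 0.13, adjusted p = 0.0903, limma). The other 6 tested Sm genes missed the threshold, with log2 fold changes of -0.43 (*Snrpf*) to -0.14 (*Snrpb*, which codes for SmB; adjusted p = 0.593, limma; 0.02 without hnRNPL-deficient library 3). All 7 had a lower mean with all libraries and 6 without hnRNPL-deficient library 3, and the median was -0.32, or -0.20 without that library. *Snrpn*, an imprinted gene for an SmB relative known from brain, was at 0 in all 6 libraries, which allows up to 2.29 to 4.11 normalized counts (3 reads) per library. *Snurf*, whose transcript it shares, was at 0 as well; 10.0% of the exon bases of *Snrpn* overlap *Snurf*, and why both were listed at 0 was not tested.

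The tri-snRNP brings U4, U5 and U6 to the intron. *Prpf3* (chr3:95830124-95855885), which codes for a U4/U6 protein, had 5407, 5429 and 4976 normalized counts in WT and 4203, 4385 and 4392 in hnRNPL-deficient libraries. The spread within each group was small and the groups were apart (log2 fold change -0.28, SE 0.09, adjusted p = 0.0767, limma). Leaving out any 1 library took its adjusted p over 0.1 in limma (0.109 to 0.229). *Prpf8*, which forms the scaffold of the catalytic centre, had a log2 fold change of -0.10 (95% interval -0.32 to 0.12, adjusted p = 0.528, limma). *Snrnp200*, the helicase that unwinds U4 from U6, was at -0.07 (-0.28 to 0.14, adjusted p = 0.656, limma; 0.04 with quantile normalization). For both, the interval lay within 1.5-fold. The remaining tri-snRNP genes ranged from -0.25 (*Snrnp40*) to 0.04 (*Prpf6*).

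The LSm ring of LSM2 to LSM8 binds U6, and LSM1 replaces LSM8 in a cytoplasmic ring of mRNA decay. *Lsm2* (chr17:34981862-34985891), which belongs to both rings, had 1837, 2001 and 1776 normalized counts in WT and 1354, 1579 and 1103 in hnRNPL-deficient libraries. The groups did not overlap, although the hnRNPL-deficient values were spread (log2 fold change -0.49, SE 0.14, adjusted p = 0.0630, limma). Without hnRNPL-deficient library 3 it was among the genes that no longer passed. *Lsm1* had a log2 fold change of -0.09 (adjusted p = 0.646, limma), and *Lsm10* and *Lsm11*, which serve the U7 snRNP of histone mRNA processing, were at -0.11 and -0.31 without passing. All 11 had a lower mean, 9 with quantile normalization or without that library, with a median of -0.16. *Lsm12*, which codes for an LSm-domain protein, was at -0.02, and its sign turned with the setting (-0.15 to 0.20).

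With the settings of the report, no gene of the minor spliceosome or of activation passed the test. The U11/U12 genes *Snrnp35*, *Snrnp48* and *Snrnp25* had log2 fold changes of 0.36, 0.30 and -0.16, and *Snrnp35* had 280, 342 and 317 normalized counts in WT and 400, 492 and 323 in hnRNPL-deficient libraries. These ranges overlapped (adjusted p = 0.268, limma). They were the least expressed of the roles, and their intervals reached 0.79. Among 5 activation and catalysis genes, *Prpf38b*, a factor of the complex before activation, was nearest to the threshold of those that missed it (log2 fold change -0.29, adjusted p = 0.113, limma), and *Prpf19*, the ubiquitin ligase that gives the Prp19 complex its name, was at -0.19 (adjusted p = 0.318, limma). *Prpf38b* fell when WT library 1 was left out (adjusted p = 0.078, limma) and with the replicate number as a block. *Snrpert*, a processed pseudogene on chromosome 2 that can share reads with *Snrpe*, was at -0.08.

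Levels of different genes were compared as normalized counts per kilobase of exon in WT. 51 of the 55 lay above 194, the median of all genes tested. The highest of each role were *Lsm12* (9614 ± 2643, SD, n = 3), *Prpf8* (7926 ± 225), *Sf3b4* (4293 ± 292), *U2af2* (4099 ± 178), *Snrpe* (3461 ± 388), *Snrpa* (2239 ± 208), *Prpf19* (1830 ± 226) and *Snrnp25* (398 ± 53.5). *Lsm12* and *Prpf8* did not differ beyond the spread of *Lsm12*, which had 30198, 18618 and 20058 normalized counts in WT, and *Sf3b4* and *U2af2* lay within 1 SD of each other. Log2 fold change and exon length had a Spearman correlation of 0.12 across the 55 genes and 0.11 across all genes. Without hnRNPL-deficient library 3 it was -0.13 and 0.13. These are descriptions across genes of the same libraries. *Hnrnpl* lies on chromosome 7 with 7 tested spliceosome genes. The nearest, *Snrpa*, is 1.62 Mb away and did not pass, and *Snrnp70* and *Snrpa1*, which did, are 16.6 and 37.3 Mb away.

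Promoters were read from RefSeq (GRCm38.p6) as windows of 300 bases around the annotated starts, which held 44 of the 56 genes. The core of ETS family sites, CCGGAAG, occurred on either strand in 17 of these 44 genes (38.6%), in 21.3% of the tested genes with a window and in 9.93% of all genes with one. It occurred in 2 of the 6 genes that fell and had a window (33.3%). The E-box CACGTG, which MYC and related factors can bind, occurred in 4 of the 44 (9.09%), against 1170 of the 9785 tested genes with a window and 8.09% of all genes. TATAAA occurred in 9.09%, 8.61% and 15.7%, and AAGATGGC, the core of YY1 sites, in 6.82%, 5.54% and 3.19%. The 3 SF3a genes, of which *Sf3a1* fell, each carried the ETS letters upstream of a RefSeq start, and *Prpf3*, which fell, carried both the ETS letters and the E-box. These stretches are shown with the matched letters in capitals, 5′ to 3′ on the gene's strand. Distances are to a RefSeq start, which can differ from the first base of the gene in the annotation used for position. By that annotation the stretch of *Sf3a2* lies inside the gene, which begins at chr10:80798198, and that of *Sf3a3* crosses the gene's first base (chr4:124714776). *Sf3a1* is at chr11:4160337-4160363 (plus strand, 7 bases before the start), *Sf3a2* at chr10:80798649-80798675 (plus, 76 bases), *Sf3a3* at chr4:124714761-124714787 (plus, 90 bases, letters on the opposite strand), *Prpf3* at chr3:95855794-95855820 (minus, 57 bases before one annotated start), and its E-box at chr3:95855858-95855883 (minus, 12 bases after an annotated start).
Sf3a1: gagggcgggaCCGGAAGtgctcccgcg
Sf3a2: gcctttgctcCCGGAAGggatcgcttc
Sf3a3: ccccaagacaCTTCCGGgacacgcgga
Prpf3: cgtagggcaaCCGGAAGgtttccggtt
Prpf3 E-box: cttccgtagtCACGTGccgtagggac
A match of letters does not show that a factor bound there.

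Outside the core proteins, 102 other genes of the spliceosome and of snRNP assembly were compared, of which 101 were tested. 17 fell (16.8%, against 7.97% of all genes) and 3 rose (2.97%, against 10.0%), with a median log2 fold change of -0.10, against -0.03. Under the alternatives 7 to 29 fell and 0 to 4 rose. The 29 came with the replicate number as a block, where 16.5% of all genes fell. When 1 library was left out 7 to 11 of the 101 fell, with 3.79% to 5.99% of all genes. The counts of the single lists below rest on few genes and are to be read against the shares of all genes in the same fit. Among 10 U1 partners 5 fell, among them *Rbm25*, *Luc7l*, *Tial1* and *Ddx17*, most of them regulators of 5′ splice site choice (2 to 5 under the alternatives). *Rbm25* had 18911, 19761 and 19204 normalized counts in WT and 9897, 11597 and 14251 in hnRNPL-deficient libraries. The groups were far apart, and the log2 fold change was -0.71 (SE 0.13, adjusted p = 0.0131, limma).

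Among 19 genes of snRNP assembly and import, 17 had a lower mean and 4 fell. Under the alternatives 2 to 11 fell, with 2 when WT library 1 or 2 or hnRNPL-deficient library 2 or 3 was left out. The 11 came with the replicate number as a block, where 16.5% of all genes fell. The 4 were *Gemin5* and *Gemin6* of the SMN complex, which loads the Sm ring onto snRNA, *Wdr77*, the partner of the methyltransferase PRMT5, and *Kpnb1*, the import receptor importin β. *Gemin6* had 1339, 1081 and 921 normalized counts in WT and 839, 665 and 596 in hnRNPL-deficient libraries, and the groups did not overlap (log2 fold change -0.67, SE 0.18, adjusted p = 0.0493, limma). It no longer passed without WT library 1 or 2 or hnRNPL-deficient library 2 or 3 (adjusted p up to 0.125, limma). *Smn1* was at -0.25 (adjusted p = 0.139, limma) and *Prmt5*, which methylates Sm proteins, at -0.20 (adjusted p = 0.251, limma).

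Among the 11 genes of helicases and the GTPase, 2 fell, of which 1, *Ddx46*, no longer passed whichever library was left out. The other, *Dhx38*, which codes for the helicase PRP16 of the second step, had 1915, 2799 and 2330 normalized counts in WT and 1204, 1625 and 1092 in hnRNPL-deficient libraries, a log2 fold change of -0.85 (SE 0.19, adjusted p = 0.0231, limma) without overlap. Among 14 tri-snRNP and B complex partners 3 fell and 1 rose. *Ppih*, a cyclophilin bound to the U4/U6 proteins, had 3401, 2711 and 2752 in WT and 2230, 1797 and 1834 in hnRNPL-deficient libraries (log2 fold change -0.60, SE 0.13, adjusted p = 0.0250, limma). *Snu13* and *Txnl4a* fell and *Txnl4b* rose. *Txnl4a* passed in no case when 1 library was left out, and *Txnl4b* did not pass without WT library 3 or hnRNPL-deficient library 1. Of 12 U2 and branch point partners 2 fell, including *Phf5a*, an SF3b subunit outside the symbol rule (log2 fold change -0.37, adjusted p = 0.0853, limma), which did not pass when any 1 library was left out. Of the 12 genes 1 fell without hnRNPL-deficient library 2 and 0 when any other library was left out. Of 20 genes of the Prp19 complex and its associates 1 fell (*Bcas2*) and 1 rose (*Ppil2*). *Bcas2* did not pass by edgeR or when the second library of either group was left out. *Ppil2* did not pass by edgeR or DESeq2, and of the fits with 1 library left out it passed only in that without hnRNPL-deficient library 3. Of 7 second step factors 0 passed with limma at the settings of the report, edgeR or DESeq2 at an adjusted p under 0.1, and 1 had an unadjusted p under 0.05 with limma. With the replicate number as a block 1 fell, where 16.5% of all genes fell.

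Of 8 tested minor spliceosome partners 0 fell and 1 rose. *Zrsr1*, which codes for a relative of the U12-type 3′ splice site factor, had 234, 295 and 252 normalized counts in WT and 440, 437 and 373 in hnRNPL-deficient libraries, without overlap (log2 fold change 0.68, SE 0.16, adjusted p = 0.0331, limma). It is similar in sequence to *Zrsr2*, with which reads could be shared, and *Zrsr2* was at -0.02. Its adjusted p (limma) was 0.121 when WT library 3 was left out and 0.101 when hnRNPL-deficient library 1 was. *Rbm25*, *Dhx38* and *Ppih*, in contrast, passed under each of the 19 alternatives.

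**Figure D5:**
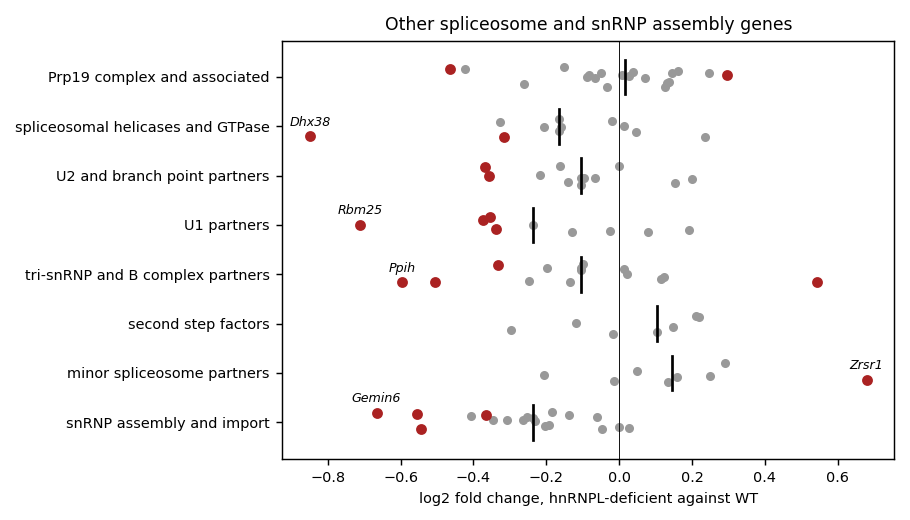
Log2 fold change (hnRNPL-deficient against WT) of 100 of the 101 tested genes of 8 lists of other spliceosome and snRNP assembly genes. Each point is a gene, red marks an adjusted p under 0.1, black bars are list medians, and names mark changes of at least 1.5-fold. *Dhx38* (-0.85) and *Rbm25* (-0.71) lie farthest left and *Zrsr1* (0.68) farthest right.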

How the data were processed

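Polyadenylated RNA of 3 WT and 3 hnRNPL-deficient libraries was sequenced as 100 bp paired ends. Per the labels and the study's methods, the authors trimmed reads with fastp (version 0.23.1), aligned them with STAR (2.7.9a) to mm10, counted them per gene with strand (featureCounts) and divided the counts by DESeq2 (1.38.2) size factors. The deposited signal is these normalized counts. Other deposited columns hold the results of the authors' own DESeq2 test (mean, log2 fold change, standard error, test statistic, p-values and a class label), which were not used.

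The members, roles, lists and tests were chosen with earlier results of these data known. Normalized counts plus a pseudocount of 1 were log2 transformed and compared with limma (3.58.1, R 4.3.3, with a trend of variance on level) over the 17640 genes that averaged 10 or more, and adjusted p-values (Benjamini-Hochberg) under 0.1 passed; folds are on this scale. In each library 100% of values were whole reads within a tolerance of 0.1. edgeR (4.0.16) and DESeq2 (1.42.0) were run on the reads of 5 libraries, since hnRNPL-deficient library 2, whose unit is close to 1, was not accepted as recovered reads. Their results thus differ from those of limma in the libraries used as well as in the method. The replicates are biological replicates per the study. Ratios were compared by an exact two-sided permutation test of log2 ratios. All 56 genes were matched by identifier to GENCODE on GRCm38, an earlier release than the authors used, for exon length and position. Genes named are those that passed, the highest per kilobase of each role, called partners and a few chosen for interest; *Snrpf*, *Sf3b6* and other ends of ranges were named after their values were seen. The limma, edgeR and DESeq2 fits were first checked on simulated data with known changes. Alternatives were other pseudocounts, filters, scalings, variance settings and thresholds, the replicate number as a block, and each library left out. 2 genes are not reported here by name, although counts and medians include them.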

Additional observations from a re-analysis of the deposited data

How the results depend on the processing

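None of the 55 core genes was higher at an adjusted p under 0.1 under any of the 19 alternatives (at an unadjusted p under 0.05, 0 by limma). The number that fell, 8 with the settings of the report, was 8 with pseudocounts of 0.5 and 5, a filter at a mean of 50 and robust variances. It was 4 with a filter at a mean of 1 (7.27%, against 5.37% of all genes), 3 with none (5.45% against 3.83%), 5 with equal totals (9.09% against 7.14%), 4 with quantile normalization (7.27% against 8.02%), 1 without a mean-variance trend (1.82% against 5.84%), 2 at an adjusted p under 0.05 (3.64% against 4.68%), 3 by edgeR (5.45% against 5.24%), 6 by DESeq2 (10.9% against 7.50%), and 2 to 4 when each library was left out (3.64% to 7.27% against 3.79% to 5.99%). The number called lower was 1 or 2 when each library was left out and 2 by DESeq2, where *Lsm2* was the second. The median log2 fold change of the 55 genes stayed below 0, from -0.24 without hnRNPL-deficient library 2 to -0.08 without hnRNPL-deficient library 3. Apart from fewer libraries or more genes tested, the cause of these changes was not tested.

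With the replicate number as a block, 19 genes fell (34.5%, against 16.5% of all genes). The deviations of each hnRNPL-deficient library correlated best with those of the WT library of the same number (0.429, 0.320 and 0.066). For hnRNPL-deficient library 3 the value with WT library 1 was close (0.050), and WT library 3 correlated best with hnRNPL-deficient library 2 (0.305). The labels give a shared number only, and whether same-numbered libraries were handled together was not tested.

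Of the 55 genes, 23 changed sign under at least 1 alternative, and 0 of these had passed the test. Among the genes named by rule, 10 values turned positive. For *Lsm12* these were 0.0395 with equal totals, 0.109 with quantile normalization, 0.137 by edgeR and 0.113 by DESeq2, and leaving out libraries gave -0.15 to 0.199. *Sf3b1* (0.0019) and *Snrnp200* (0.045) turned with quantile normalization. Leaving out libraries gave -0.383 to 0.0847 for *Snrnp25* and -0.254 to 0.0201 for *Snrpb*, both positive without hnRNPL-deficient library 3 only. With 3 libraries a group, the median half-width of a 95% interval was 0.30 on the log2 scale.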
